A study of Mus musculus with 3 samples.

Results

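Livers of mouse embryos with a double deficiency, in DNase II and in the type I interferon receptor (IFN-IR in the labels), were compared with wild-type livers at stage E14.5. The comparison took every probe with a value in the arrays labelled wild-type and double-deficient, which are 2 of the 3 arrays in the study. These were 20176 of 20289 probes; those with 1 gene symbol stood for 13703 genes, of which 8162 were bright enough to compare. The third array held liver lacking DNase II alone, and its values are given beside the others without a count of their own. Any difference of either mutant from wild-type rests on the same wild-type array. Poly(A) RNA was hybridised to single-colour CodeLink oligonucleotide arrays, 1 array per genotype. Per the labels, both mutant genotypes are deficiencies of the embryo; the mouse strain, the sex of the embryos and how many embryos went into each array were not given in the sources used here. There are no replicates, so each difference is a value with no test, standard error or p-value, and the number of arrays limits the precision.

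DNase II is the nuclease with which macrophage lysosomes digest the DNA of engulfed cells. In the fetal liver, macrophages at the centre of erythroblastic islands take up the nuclei that maturing red cells expel, and undigested DNA there provokes type I interferon. Type I interferon acts through a 2-chain receptor whose chains are encoded by Ifnar1 and Ifnar2. Mice lacking DNase II alone die before or around birth with severe anaemia, and removal of the interferon receptor is known to rescue them. The comparison asks what still differs from wild-type when the nuclease is missing but the receptor cannot signal.

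Values below are normalised intensities on a linear scale and are given in the order wild-type, double-deficient and DNase II-deficient array unless named otherwise. Each array had a median near 1 (0.958, 0.963 and 0.959), so an intensity of 1 is that of a typical probe. Before log2 transformation, values under the 25th percentile of the array (0.162 in wild-type, 0.163 in the double-deficient array) were raised to it. A gene was compared if the wild-type array, the double-deficient array or both read it above their median. A fold is written as "at least" where the dimmer array lay at that floor, since it then has only a lower limit. Among genes of like level, the log2 difference had a typical spread of 0.27, with a range of 0.21 to 0.54 from the tightest to the widest level. That spread describes these 2 arrays and not replicates. Intensity also differs between probes for reasons of sequence, so levels are compared between arrays and not between genes.

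The targeted genes do not settle the genotypes. Dnase2a, which encodes DNase II, read 40.4, 39.7 and 48.6. Ifnar1 read 3.60, 3.17 and 4.66 and Ifnar2, below the level filter, read 0.574, 0.483 and 0.485. The sources used here do not place these probes inside or outside the deletions, and one outside checks nothing, so the genotypes rest on the labels. On the markers the tissue matched its label, though the level filter is a loose measure. It was passed by 33 of 36 measured erythroid genes and 26 of 28 measured hepatocyte plasma protein genes in this comparison. Of all genes 8162 of 13703 passed it, and of measured muscle genes 9 of 21. In such bulk tissue, fewer cells of a type and less RNA per cell cannot be told apart.

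The double-deficient liver stayed close to wild-type over most genes. Of 8162 genes compared, 7367 (90.3%) lay within 1.5-fold. At 2-fold, 167 genes were higher (2.05% of those compared) and 60 were lower (0.735%). At 4-fold, 33 were higher (0.404%) and 11 were lower (0.135%). The 167 higher genes had a median intensity of 1.19 in wild-type, 3.60 in the double-deficient and 6.25 in the DNase II-deficient array. The 60 lower genes had medians of 3.27, 1.36 and 1.45. Higher genes made up 73.6% of the 227 differences of 2-fold as deposited, and between 76.2% and 79.7% under the other scalings of the arrays. Many of the higher genes were dim, since 75 of the 167 had a wild-type intensity below 1 and 9 were at the wild-type floor. The level filter has a share in these counts: 73 of the 167 passed it through the double-deficient array alone, and 24 of the 60 lower genes passed it through wild-type alone, so for these a difference was favoured by the filter. The median log2 difference over all genes compared was -0.08, 61.1% of them lying below 0, and list medians below are read against that value. Counting probes in place of genes, 187 of 10409 were at least 2-fold higher (1.8%) and 75 lower (0.721%), with 35 (0.336%) and 14 (0.134%) at 4-fold.

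**Figure D1:**
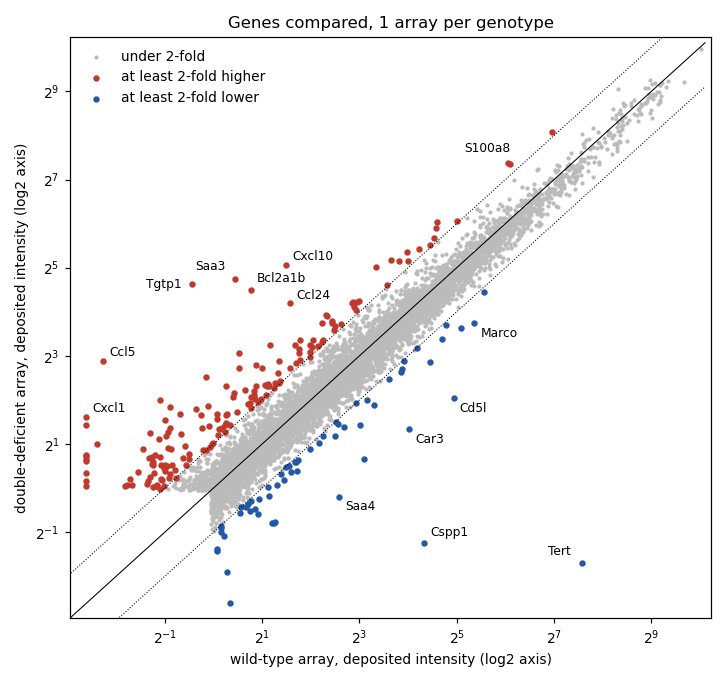
Normalised intensity of each gene compared in the wild-type array (horizontal axis, log2 scale) against the double-deficient array (vertical axis, log2 scale), 1 point per gene, with lines at equality and at 2-fold. Most of the 8162 genes lie between the 2-fold lines, with 167 above and 60 below, and Tert, Ccl5 and Tgtp1 are among the farthest from equality.

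Gene groups are described in turn by their counts at 2-fold and by the median log2 difference of those members that exceeded the floor in 1 or both arrays compared. Each count is to be read beside the shares over all genes compared, 2.05% at least 2-fold higher and 0.735% lower. At such shares, a short list with no member called, or with a single one, shows little. Of 46 lists, those with the largest medians were interferon-inducible GTPases (1.54), neutrophil granule genes (1.21), Fc receptors and their signalling adaptors (0.95) and CXC chemokines (0.93). That order depends on the floor: raised to the array median, it gave 1.22 for neutrophil granule genes, 0.97 for CC chemokines and 0.72 for the GTPases, and at the 10th percentile the CXC chemokine median was 0.11. The lowest medians were those of heme biosynthesis (-0.54), hepatocyte plasma proteins (-0.41), complement (-0.40) and globins (-0.34). Together the lists held 591 of the genes compared, of which 77 were 2-fold higher and 11 lower.

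**Figure D2:**
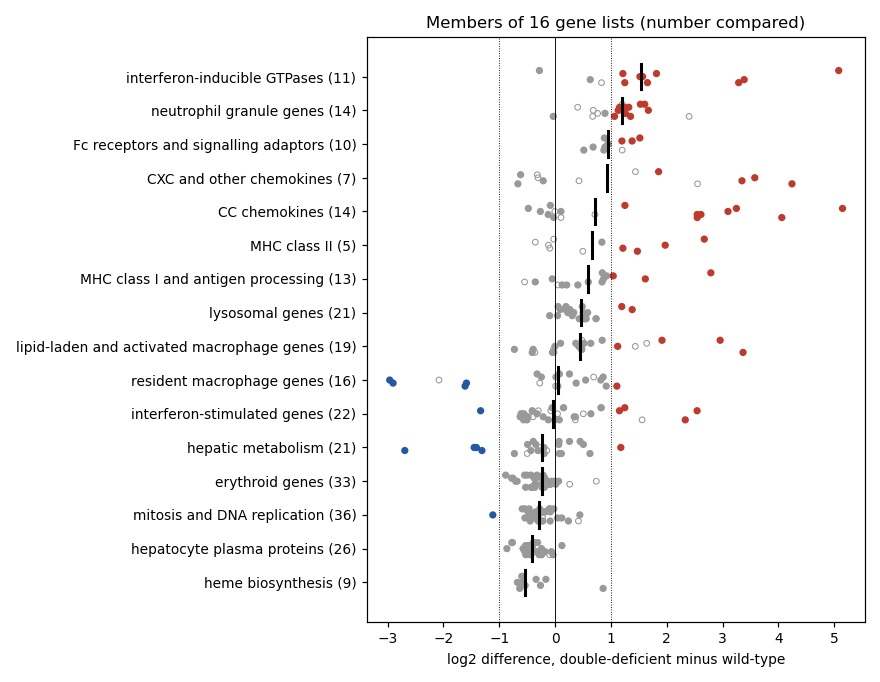
Log2 difference (double-deficient minus wild-type, horizontal axis) of each gene in the gene lists (rows). Filled points are members that passed the level filter, hollow points are members above the floor but below that filter, and the black bar is the median over both. The rows of interferon-inducible GTPases and neutrophil granule genes lie mostly above 1, and those of erythroid genes and hepatocyte plasma proteins lie mostly just below 0.

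Classical interferon-stimulated genes, which carry the antiviral state, had a median near 0 in the double-deficient liver, with a few members above 2-fold. Of 38 measured, 22 were compared, 4 were at least 2-fold higher and 1 was lower, beside 2.05% and 0.735% of all genes compared; 2 of the 4 passed the level filter through the double-deficient array alone. Their median log2 difference was -0.03 as deposited and between 0.02 and 0.05 after 75th percentile scaling, cyclic loess or centring, so its sign depends on the scaling. The summed intensity of the measured members was 171.6 in wild-type, 193.0 in the double-deficient and 1425 in the DNase II-deficient array. Irf7, a factor that amplifies interferon synthesis, read 3.75, 2.68 and 193. Usp18, which restrains signalling at the interferon receptor, read 1.98, 2.09 and 55.3, and the receptor transporter gene Rtp4 read 1.05, 0.740 and 43.1. These 3 genes were high in the DNase II-deficient array alone. The 4 members that were higher were each higher still in the DNase II-deficient array. Oasl1, an oligoadenylate synthetase-like inhibitor of Irf7 translation, read 0.407, 2.38 and 40.0 and was 5.83-fold higher. Ifit1, which binds viral RNA lacking cap methylation, read 0.365, 1.84 and 45.7 and was 5.04-fold higher. Ifitm3, a membrane protein that blocks virus entry, read 23.02, 51.2 and 388, a 2.22-fold difference, and the GTPase gene Ifi47, which is also in the next group, was 2.38-fold higher. In each of these the double-deficient array lay between the other arrays, far nearer to wild-type for Ifit1, Oasl1 and Ifitm3. Ifi27 went the other way, with 3.31, 1.31 and 41.8, and was 2.52-fold lower than wild-type. Of the related p200 and Schlafen genes, 1 of 3 compared was 2-fold higher: Slfn2, a regulator of lymphocyte and myeloid quiescence, read 3.19, 9.44 and 26.7. Its relative Slfn3 lay below wild-type, at 3.34, 2.75 and 3.78.

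Most interferon-inducible GTPases compared were brighter in the double-deficient array than in wild-type. These proteins, the immunity-related GTPases and guanylate-binding proteins, attack the vacuoles of intracellular pathogens and respond to type II as well as type I interferon. Of 12 measured, 11 were compared, 9 were at least 2-fold higher and 0 were lower, where 2.05% of all genes were higher. Of the 9, Tgtp1, Gbp2, Iigp1, Gbp3, Gbp4 and Irgm2 were below the wild-type median and passed the level filter through the double-deficient array alone, so the filter sets part of that count. Of the 5 members above the wild-type median, 3 were at least 2-fold higher. The median was 1.54, and 0.72 with 5 members called when the floor was raised to the array median. Tgtp1 read 0.735, 24.9 and 96.0 and was 33.8-fold higher. It has a near-identical copy, Tgtp2, whose signal cannot be separated from it. Gbp2 read 0.190, 1.99 and 5.25 and was 10.5-fold higher, and Iigp1 read 0.160, 1.58 and 9.63, at least 9.77-fold higher because wild-type was below its floor. Gbp4, Gbp8, Gbp3, Irgm2 and Igtp were between 2.32-fold and 3.52-fold higher. Ifi47 read 7.99, 19.0 and 85.4. In all 9 the double-deficient value lay between that of wild-type and that of the DNase II-deficient array. The members compared but not called were Irgm1, a regulator of the other immunity-related GTPases, at 8.05, 12.5 and 57.1, and Gbp7, at 14.2, 11.7 and 12.1.

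Because these GTPase genes differed together, the sequence before their start sites is shown, with motifs sought in RefSeq promoter windows (build GRCm38.p6) that span 250 bases before to 50 after a start. The motifs, chosen with the values known, were the interferon-stimulated response element ISRE (GAAA, any 2 bases, GAAA), the gamma-activated sequence GAS (TTC, any 3 bases, GAA) and the κB element (GGGA, any 1 base, TTTCC). Each was sought on both strands, and matches of different motifs could overlap. Over 32851 windows, 3.44% held the ISRE letters, 8.3% the GAS letters and 0.411% the κB letters. Of the 12 measured GTPases 9 had a window, and 8 of these held ISRE letters and 5 GAS letters. Among the 9 GTPases called higher, 6 had a window, 5 held ISRE letters and 3 GAS letters. The letters were also frequent in the interferon-stimulated genes, whose median was near 0. Of 38 measured there, 29 had a window, and 12 of these held ISRE letters and 6 GAS letters. In Tgtp1, Irgm2 and Igtp a GAS match, which reads the same on both strands, stood shortly before an ISRE match, with first letters 11 bases apart. That arrangement occurred in 5 of all windows (0.0152%), all on chromosome 11: those of Tgtp1, Tgtp2, Igtp, Irgm2 and Gm12185. Only this spacing, the one seen in these genes, was counted, so its rarity is not a test. The windows of Irgm2 and Igtp share a run of 61 identical bases, those of Tgtp1 and Irgm2 one of 20 and those of Tgtp1 and Igtp one of 14, so the 3 are not independent examples. A match describes letters and is not evidence of a bound site. The 120 bases before each start are printed 5′ to 3′ on the gene's strand, with the GAS and ISRE letters in capitals. The Tgtp1 stretch is chr11:48992247-48992366 (minus strand), the Irgm2 stretch chr11:58214857-58214976 (plus strand), the Igtp stretch chr11:58199436-58199555 (plus strand) and the Gbp2 stretch chr3:142620543-142620662 (plus strand, with its ISRE letters on the opposite strand).
Tgtp1: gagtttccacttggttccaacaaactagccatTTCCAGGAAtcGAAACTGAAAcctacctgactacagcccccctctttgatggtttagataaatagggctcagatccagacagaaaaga
Irgm2: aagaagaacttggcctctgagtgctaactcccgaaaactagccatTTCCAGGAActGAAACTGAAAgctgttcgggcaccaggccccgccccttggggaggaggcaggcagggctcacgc
Igtp: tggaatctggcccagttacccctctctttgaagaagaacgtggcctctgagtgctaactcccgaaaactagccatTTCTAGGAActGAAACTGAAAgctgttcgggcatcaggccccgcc
Gbp2: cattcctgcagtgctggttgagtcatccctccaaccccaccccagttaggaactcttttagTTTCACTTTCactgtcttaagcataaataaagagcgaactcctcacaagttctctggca

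Genes of antigen presentation were higher in part. Of 13 genes of MHC class I and antigen processing compared, from 15 measured, 3 were at least 2-fold higher and 0 lower, with 11 of 13 above 0 and a median of 0.60. Tap1, a subunit of the transporter that carries peptides into the endoplasmic reticulum, read 0.140, 1.12 and 4.80 and was at least 6.92-fold higher. The immunoproteasome subunits Psmb8 and Psmb9 were 3.07-fold and 2.06-fold higher, with Psmb8 at 4.99, 15.3 and 49.9. The third immunoproteasome subunit, Psmb10, read 19.9, 35.8 and 44.3. B2m, the class I light chain, was close to wild-type, at 111, 121 and 456. Of the class I genes, H2-Q7 lay below wild-type, at 2.26, 1.77 and 7.56, and H2-T23 was close to it, at 10.7, 10.3 and 42.0.

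Several MHC class II genes, which present peptides from the endosomes of professional antigen-presenting cells, were brightest in the double-deficient array. Of 10 measured, 5 were compared and 4 of these were at least 2-fold higher; 1 was called when the floor was raised to the array median. All 4 were below the wild-type median and passed the level filter through the double-deficient array alone, so the count says little beyond their single values. Cd74, the invariant chain, read 0.898, 5.73 and 2.43 and was 6.38-fold higher. H2-Eb1 read 0.416, 1.63 and 0.155, H2-Aa read 0.512, 1.42 and 0.127 and H2-Ab1 read 0.442, 1.03 and 0.652, which are 3.92-fold, 2.78-fold and 2.32-fold above wild-type. For these 4 chains the DNase II-deficient array did not reach the double-deficient value. H2-DMa, which loads peptides, read 1.10, 1.96 and 2.30. Of the dendritic cell genes, 0 of 4 compared were 2-fold different, which is near the share over all genes, 2.05% higher and 0.735% lower. The summed intensity of the 14 measured dendritic cell genes was 17.9 in wild-type and 21.8 in the double-deficient array. Lymphoid genes summed to 22.2 and 20.4 over 25 measured. The part of these cells in the class II values was not tested.

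Chemokines, the secreted proteins that recruit leukocytes, held several of the largest differences. Of 14 CC chemokine genes compared, from 20 measured, 8 were at least 2-fold higher and 0 lower, beside 2.05% and 0.735% of all genes. The median was 0.71, and 0.24 with the floor at the 10th percentile. The level filter was passed through the double-deficient array alone by 5 of the 8. Ccl5, a ligand for receptors on T cells and monocytes, read 0.208, 7.38 and 11.1 and was 35.5-fold higher. The monocyte attractants Ccl2, Ccl7 and Ccl12 were higher together. Ccl2 read 1.43, 8.38 and 20.5, a 5.84-fold difference, and Ccl12 read 0.466, 3.99 and 5.89, an 8.56-fold difference. Ccl7 read 0.125, 2.70 and 3.53 and was at least 16.7-fold higher. Ccl3, a ligand of Ccr1, read 0.503, 2.94 and 5.88, and Ccl6, a myeloid chemokine, read 3.98, 9.47 and 19.0. These 6 genes were highest in the DNase II-deficient array and lowest in wild-type. Ccl24, an eosinophil attractant made by macrophages, had another order, with 2.98, 18.2 and 0.985, so that it was 6.12-fold above wild-type in the double-deficient array and below wild-type in the DNase II-deficient array. Ccl20, the ligand of Ccr6, read 0.104, 1.54 and 0.482 and was at least 9.50-fold higher. The 6 members compared but not called included Ccl4, at 8.72, 9.38 and 8.97, Ccl27a, the lowest of the list by difference, at 2.34, 1.68 and 1.40, and Ccl25, a chemokine of thymus and gut that also lay below wild-type, at 1.62, 1.35 and 0.954.

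Of 7 CXC and other chemokine genes compared, from 15 measured, 4 were at least 2-fold higher (2 when the floor was raised to the array median) and 0 lower, and 3 of the 4 passed the level filter through the double-deficient array alone. The median of 0.93 was 0.11 with the floor at the 10th percentile and 1.44 over genes with 1 probe. Cxcl10, which attracts T cells and is induced by interferons of both types, read 2.81, 33.5 and 70.2 and was 11.9-fold higher. Cxcl9, a ligand of the same receptor known for its response to interferon gamma, read 0.0787, 1.65 and 1.18, at least 10.2-fold higher. Cxcl1, a neutrophil attractant, read 0.0933, 3.07 and 4.89, at least 18.9-fold higher. Cxcl1 was below the floor in wild-type and above it in both mutants, as was Cxcl9. Cxcl16, a membrane-bound chemokine of macrophages, read 0.523, 1.89 and 2.01. The platelet chemokine Ppbp was lower, at 158, 99.9 and 96.1, without reaching 2-fold, and Cxcl12, the stromal factor that holds stem cells in their niche, read 1.70, 1.11 and 1.38. Ifng, the gene of type II interferon, was below the floor in each of the 3 arrays, at 0.0162, 0.0648 and 0.0603, and Ifnb1, at 0.105, 0.456 and 0.471, was below the level filter. Of 15 nucleic acid sensing and DNA digestion genes compared, 0 were 2-fold different, near the share over all genes, 2.05% higher and 0.735% lower. The largest difference there was that of Sting1, the adaptor for cytosolic DNA, at 4.73, 8.61 and 7.77.

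**Figure D3:**
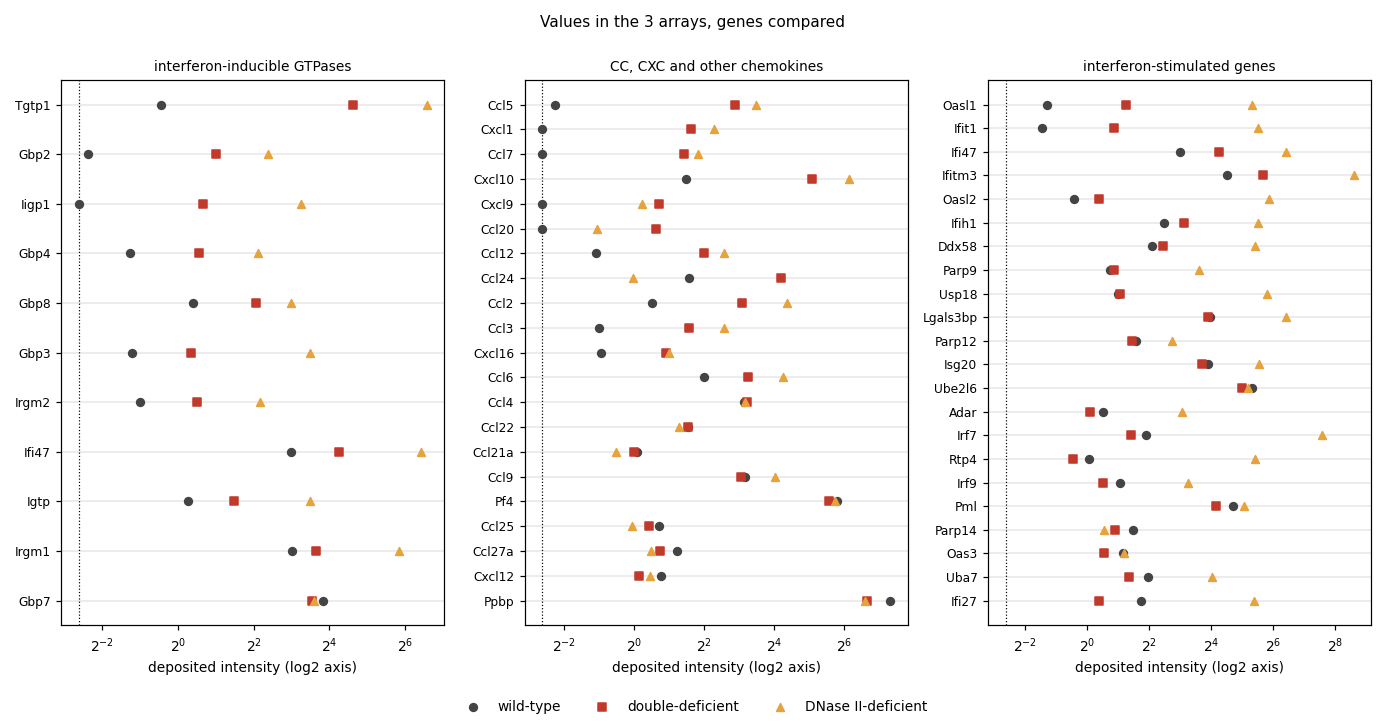
Normalised intensity (horizontal axis, log2 scale) of the interferon-inducible GTPase, chemokine and interferon-stimulated genes compared (rows) in the wild-type, double-deficient and DNase II-deficient arrays, 1 point per array, with values under the floor drawn at the dotted floor line. Tgtp1, Cxcl10 and Ccl5 lie far to the right of wild-type in both mutants, Ccl24 is highest in the double-deficient array, and most interferon-stimulated genes are high in the DNase II-deficient array alone.

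Among receptors for chemoattractants, 3 of 7 compared were at least 2-fold higher and 0 lower. C3ar1, the receptor for complement fragment C3a, read 0.540, 3.60 and 11.7 and was 6.66-fold higher. Fpr2, a formyl peptide receptor of phagocytes, read 1.19, 5.01 and 9.11 and was 4.20-fold higher, and Ccr1 read 1.05, 3.20 and 7.72. Each of these was highest in the DNase II-deficient array. C5ar1, the receptor for complement fragment C5a, lay just below wild-type, at 1.46, 1.38 and 1.23. The chemokine receptor gene Cxcr2 was under the level filter and so was not counted. It read 0.914, 0.263 and 0.418 and was 3.48-fold lower. Without the filter, 3 of 15 members were at least 2-fold higher and 1 was lower. Of 19 inflammatory cytokine genes measured, 9 were compared and 1 was at least 2-fold higher: Ebi3, a subunit of the cytokines IL-27 and IL-35, at 2.13, 4.97 and 7.42. Tnf read 0.116, 0.389 and 0.431, Il1b 0.201, 0.730 and 1.54 and Il6 0.442, 0.659 and 0.635, all under the level filter in the 2 arrays compared. Il33 and Il12a passed it and lay slightly below wild-type, at 1.31, 1.16 and 1.44 and 1.52, 1.40 and 1.38. Of 13 NF-κB and feedback genes compared, 2 were higher by 2-fold or more and 0 lower. Nfkbia, the inhibitor that NF-κB itself induces, read 7.27, 18.7 and 40.9, a 2.57-fold difference. Irf1, a transcription factor for GTPase and MHC genes, read 3.40, 10.3 and 16.4, a 3.02-fold difference. Birc3, another NF-κB target, read 1.99, 3.90 and 5.43, and the feedback inhibitors Tnfaip3, at 2.08, 2.09 and 1.63, and Socs3, at 1.47, 1.67 and 2.12, were near wild-type. Nos2, the inducible nitric oxide synthase, at 2.51, 1.90 and 2.22, and the adhesion molecule gene Vcam1, at 12.4, 10.5 and 15.1, lay below it.

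The κB letters stood in 2 of 12 windows of measured CXC chemokines (Cxcl1 and Cxcl2), 2 of 15 of measured NF-κB and feedback genes (Nfkbia and Nfkb2), 0 of 14 of CC chemokines and 1 of 9 of GTPases (Gbp5). Of these genes only Cxcl1 and Nfkbia were called higher, and their windows are shown. Cxcl2, Nfkb2 and Gbp5 were not called. Cxcl2 was just under the level filter, at 0.102, 0.950 and 3.01, and was at least 5.87-fold higher. Gbp5, also under the filter, read 0.214, 0.380 and 0.727. Of the 8 CC chemokines called higher, 4 had a window and 0 held any of the motifs. Of the 4 CXC chemokines called higher, 3 had a window, with κB letters in Cxcl1 and ISRE letters in Cxcl10. The capitals mark the κB letters in the 120 bases before each start, chr5:90891125-90891244 (plus strand) for Cxcl1 and chr12:55492648-55492767 (minus strand) for Nfkbia, where the motif reads on the strand opposite to the gene.
Cxcl1: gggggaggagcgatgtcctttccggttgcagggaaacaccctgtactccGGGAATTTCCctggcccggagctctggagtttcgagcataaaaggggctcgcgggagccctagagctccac
Nfkbia: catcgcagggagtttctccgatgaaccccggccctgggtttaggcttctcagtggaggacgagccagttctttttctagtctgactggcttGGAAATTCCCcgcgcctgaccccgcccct

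Acute phase genes, which hepatocytes secrete during inflammation, were mixed. Of 15 compared, from 23 measured, 4 were at least 2-fold higher and 1 was lower, with a median of 0.19. Saa3, a serum amyloid A made by macrophages and epithelium as well as liver, read 1.36, 26.8 and 15.7 and was 19.8-fold higher. Its relative Saa4, the constitutive form, read 5.99, 0.875 and 6.64 and was 6.85-fold lower in the double-deficient array than in wild-type. Hp, the haemoglobin scavenger haptoglobin, read 10.1, 32.2 and 41.7 and was 3.18-fold higher. Hamp, the iron-regulating hormone hepcidin, read 5.43, 13.7 and 118 and was 2.53-fold higher, and Lrg1 was 3.79-fold higher at 0.303, 1.15 and 3.74. Itih3, a hyaluronan-binding inhibitor chain, lay below wild-type, at 38.7, 28.6 and 35.2. The fibrinogen chain gene Fgb was near wild-type, at 321, 363 and 369, and so was Crp, at 17.9, 18.8 and 15.5. Hp also belongs to the neutrophil granule list below, whose members were higher together.

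Neutrophil granule genes were higher as a group. Of 14 compared, from 20 measured, 12 were at least 2-fold higher and 0 lower, beside 2.05% of all genes higher, with a median of 1.21. Of the 12, 11 were above the wild-type median, so that the level filter did not select them for being high in the double-deficient array. The summed intensity of the 20 measured members was 315.8 in wild-type, 729.8 in the double-deficient and 927.5 in the DNase II-deficient array. Genes of the early, azurophil granules and of the later, specific granules were both among them. Of the former, Elane, neutrophil elastase, read 21.9, 45.8 and 60.5, and Ctsg, cathepsin G, read 7.44, 17.2 and 20.8. Prtn3, proteinase 3, read 11, 20.4 and 37.9, a difference of 0.89 on the log2 scale that stayed under 2-fold. Of the specific granule genes, Ngp read 12.5, 36.1 and 39.3 and was 2.89-fold higher. Camp, the antimicrobial peptide cathelicidin, read 23.8, 59.5 and 81.2, and Ltf, lactoferrin, read 7.17, 18.3 and 22.4. Of the subunits of calprotectin, S100a8 read 68.4, 164 and 194 and S100a9 read 124, 271 and 329.8. The folds of the 12 genes ran from 2.09 to 3.18. Padi4, the enzyme of chromatin release, was the one member compared that lay below 0 as deposited, at 1.81, 1.77 and 2.55. Stem and progenitor genes had a median of -0.05, which was 0.03 after centring, with 0 of 8 2-fold different, a count near the share over all genes. In the list of mast cell, basophil and eosinophil genes 1 of 12 compared was at least 2-fold higher: Epx, eosinophil peroxidase, at 0.478, 1.14 and 0.907, which was not called when the floor was raised to the array median. Of the mast cell protease genes, Cpa3 read 2.35, 2.98 and 1.43 and Tpsb2 read 4.34, 4.51 and 4.66.

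Resident macrophage genes were mixed. Of 16 resident macrophage genes compared, from 21 measured, 4 were at least 2-fold lower and 1 was higher, beside 0.735% and 2.05% of all genes. The list's median was 0.05, with 10 of the 16 above 0 and 6 below. Cd5l, a secreted inhibitor of macrophage apoptosis, read 30.6, 4.10 and 3.41 and was 7.47-fold lower. Clec4f, the Kupffer cell lectin, read 1.27, 0.0902 and 0.177 and was at least 7.79-fold lower because the double-deficient value was below its floor. The scavenger receptor Marco read 41.1, 13.5 and 3.98 and was 3.06-fold lower, and Fcna, a ficolin, read 21.7, 7.23 and 2.43 and was 3.003-fold lower. Marco and Fcna were lowest in the DNase II-deficient array, with the double-deficient value between the other 2. Below wild-type without reaching 2-fold were Vcam1, given above, and the integrin gene Itgax, at 1.97, 1.58 and 1.502. Of the members under the level filter, Cd163, the haemoglobin scavenger receptor, was lower, at 0.710, 0.587 and 0.460. Folr2, a folate receptor of resident macrophages, read 0.689, 0.106 and 0.0979, at least 4.22-fold lower. Others under the filter were higher, and over all 21 measured members 13 lay above 0 and 8 below. The members above 0 that follow, apart from Nr1h3, were chosen after their values were seen. Of the complement C1q subunits, C1qa read 8.06, 9.64 and 5.73. C1qb read 36.8, 69.4 and 65.4, and C1qc read 14.01, 18.2 and 18.0. Spic, the transcription factor of iron-recycling macrophages, read 2.88, 4.21 and 4.36, and its target Slc40a1, the iron exporter ferroportin, read 13.6, 14.05 and 10.1. Mrc1, the mannose receptor, read 3.98, 7.24 and 2.78, and Mertk, a receptor for the uptake of dying cells, read 1.99, 2.01 and 1.93. Nr1h3, the sterol-sensing LXRα, was 2.15-fold higher in the double-deficient array, at 3.96, 8.53 and 3.40, and was not raised in the DNase II-deficient array.

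Genes of lipid-laden and activated macrophages were higher in part, with 4 of 19 compared at least 2-fold higher (2 when the floor was raised to the array median), 0 lower and a median of 0.45. Gpnmb, a glycoprotein of macrophages with loaded lysosomes, read 0.0342, 1.67 and 2.24 and was at least 10.3-fold higher. Mmp12, macrophage elastase, read 0.0668, 1.26 and 0.717 and was at least 7.76-fold higher. Msr1, a scavenger receptor, read 1.83, 6.91 and 6.79 and was 3.77-fold higher, and Clec7a, the β-glucan receptor dectin-1, read 2.39, 5.19 and 2.83. Msr1 was at nearly the same level in both mutants, whereas Clec7a and Mmp12 were highest in the double-deficient array. Arg1 was lower without reaching 2-fold, at 4.37, 2.64 and 2.74, as was Acp5, the tartrate-resistant phosphatase, at 105, 79.1 and 51.8. Each of the 10 Fc receptor and signalling adaptor genes compared was above 0, and 3 were at least 2-fold higher (5 after centring), with a median of 0.95. Ms4a6d, a membrane protein of monocytes, read 2.55, 7.32 and 14.3, and its second probe gave a log2 difference of 1.63 beside 1.52. Fcgr4, an activating receptor for IgG, read 0.501, 1.30 and 4.02, and Cd300lf read 1.12, 2.58 and 6.94. The shared adaptors lay just under 2-fold, Fcer1g at 6.99, 12.9 and 19.7 and Tyrobp at 9.04, 16.6 and 23.05.

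Lysosomal genes lay mostly above wild-type, with 20 of 21 compared above 0 and a median of 0.46, and 2 at least 2-fold higher. Ctsc, the protease that activates granule serine proteases, read 15.8, 41.2 and 65.5, a 2.61-fold difference. Ctss, the cathepsin that degrades the class II invariant chain, read 18.6, 42.6 and 75.3, a 2.29-fold difference. Lamp1, the main membrane protein of lysosomes, read 18.2, 30.2 and 23.2, and Tpp1 was the member below 0 as deposited, at 35.7, 33.4 and 33.4. The neutrophil summed intensity that was higher in the double-deficient array (729.8 against 315.8) stands beside these receptor, lysosomal and chemokine values as well, and its part in them was not tested.

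**Figure D4:**
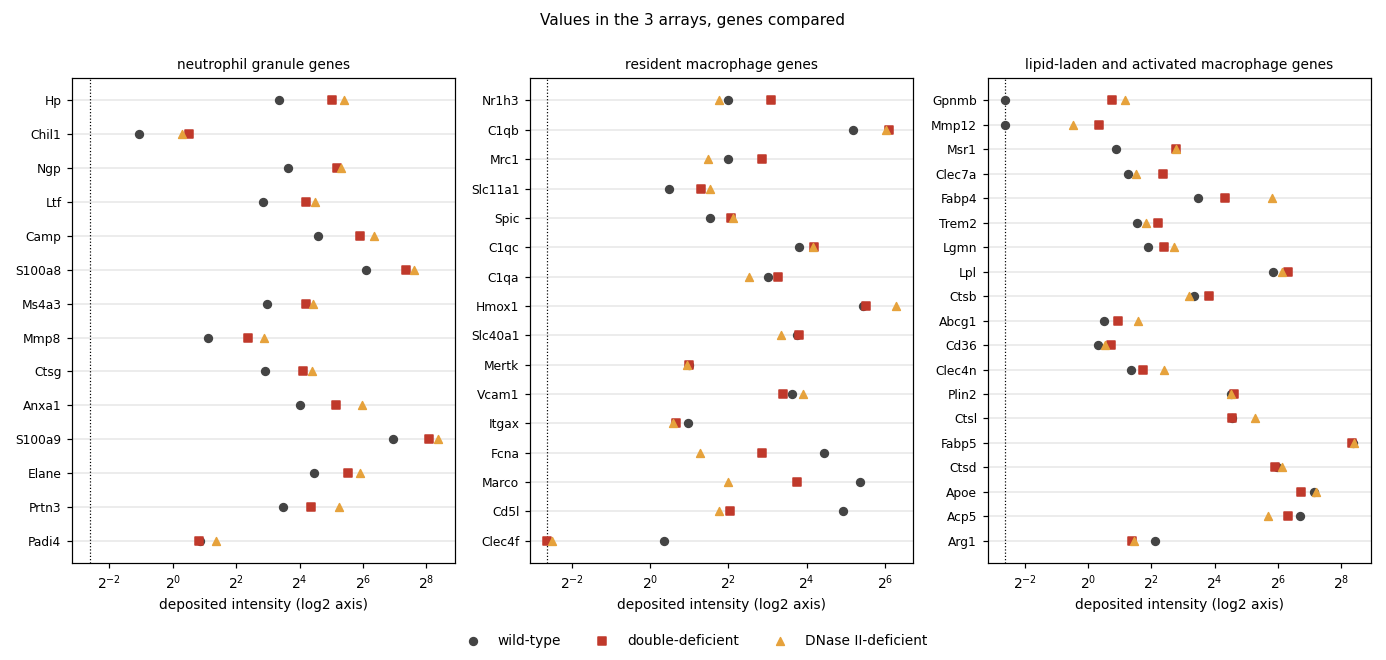
Normalised intensity (horizontal axis, log2 scale) of neutrophil granule, resident macrophage and activated macrophage genes (rows) in the wild-type, double-deficient and DNase II-deficient arrays, 1 point per array, with values under the floor drawn at the dotted floor line. Neutrophil granule genes such as Ngp sit to the right of wild-type in both mutants, and Cd5l, Marco, Fcna and Clec4f sit to the left.

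Outside the lists, the largest positive differences included further genes of myeloid cells. Bcl2a1b, a survival factor of the Bcl-2 family whose near-identical copies cannot be separated, read 1.71, 22.7 and 21.9 and was 13.3-fold higher. Ubd, the ubiquitin-like modifier FAT10 known to respond to interferon gamma and TNF, read 0.00605, 1.02 and 0.660 and was at least 6.33-fold higher. Pparg, the nuclear receptor for fatty acids, read 0.519, 2.42 and 3.75 and was 4.65-fold higher. Cd274, the checkpoint ligand PD-L1, read 0.420, 1.496 and 9.10 and was 3.56-fold higher, well short of its value in the DNase II-deficient array. Capg, an actin-capping protein of macrophages, read 0.459, 2.15 and 2.37, and Lilr4b, an inhibitory receptor, read 1.44, 6.604 and 13.2. Genes of phagocyte signalling were also present: Ncf1, a subunit of the NADPH oxidase, read 0.421, 1.44 and 1.94, and the kinase gene Fgr read 0.625, 2.33 and 2.21. Sat1, which acetylates polyamines, read 2.23, 9.42 and 12.8, Plaur, the urokinase receptor, read 0.281, 1.04 and 2.95, and Hpgds, a prostaglandin D synthase, read 0.466, 1.62 and 0.926. Vnn3, Inpp5d, Camk2d, Tmem273, Galnt3, Clec4a3, Aoah and Stap2 were between 3.32-fold and 5.12-fold higher. Vcan, the matrix proteoglycan versican, was 3.77-fold higher by its brighter probe, but its second probe was at the floor in both arrays.

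Red cell genes lay a little below wild-type in nearly every case, and the size was small. Of 33 erythroid genes compared, from 36 measured, 0 were 2-fold different, 30 lay below 0, and the log2 differences ran from -0.88 to 0.06 with a median of -0.23. Under the other scalings 27 to 30 lay below 0. For comparison, the 4201 genes with a wild-type intensity above the 75th percentile had a median of -0.11, with 67.8% below 0. Trim10, required for terminal erythroid differentiation, read 8.80, 4.77 and 2.07. Icam4, an adhesion molecule of erythroblastic islands, read 10.9, 6.32 and 2.91, and Hemgn, a nuclear regulator of erythroid cells, read 104, 61.4 and 34.4. Rhd, a Rhesus antigen gene, read 136, 83.5 and 41.3. In these 4 the double-deficient array lay between wild-type and the DNase II-deficient array. Epor, the erythropoietin receptor, read 10.9, 6.80 and 4.68. Klf1, the master regulator of adult globin genes, was near its wild-type intensity in the double-deficient array, with 15.9, 16.1 and 6.14, as were the membrane skeleton gene Sptb, at 159, 148 and 52.8, and the transferrin receptor gene Tfrc, at 18.6, 17.7 and 33.5.

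Heme biosynthesis genes had a median of -0.54, with 8 of 9 compared below 0 and 0 at 2-fold. Alad, the enzyme that forms porphobilinogen, read 86.7, 59.8 and 30.1. Of the enzymes of the late mitochondrial steps, Cpox read 57.7, 38.2 and 33.2 and Ppox read 59.3, 38.2 and 28.8. The mitochondrial transporter gene Abcb10 read 72.9, 45.7 and 31.3. Alas1, the first enzyme of the pathway in non-erythroid tissue, was the exception, at 11.5, 20.8 and 21.0. Each of the 5 globin genes compared was lower as deposited, with a median of -0.34, and 4 of 5 were lower after quantile normalisation, cyclic loess or centring. Hba-x, the embryonic zeta globin, read 61.1, 35.2 and 155, Hbb-y read 224, 133 and 403 and Hbb-bh1 read 184, 145 and 288. The embryonic globins were therefore lowest in the double-deficient array and highest in the DNase II-deficient array. The adult genes Hba-a1, at 632, 547 and 482, and Hbb-bt, at 1032, 993 and 895, differed by -0.21 and -0.05 on the log2 scale, and saturation of such bright spots was not checked, as the sources used here say nothing of it. Of 11 iron handling genes compared, the 2 called higher were Hamp and Ltf, already described with the acute phase and neutrophil genes.

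Genes of mitosis and DNA replication had a median of -0.29, with 32 of 36 compared below 0 (28 after cyclic loess) and 1 at least 2-fold lower. Cdc6, which loads the replicative helicase, read 47.2, 21.8 and 20.6, a log2 difference of -1.11 that was just under 2-fold (-0.995) after cyclic loess. Its second probe was at the floor in both arrays. Mki67, the proliferation marker, read 307, 226 and 133, and Rrm2, a subunit of the enzyme that makes deoxynucleotides, read 81.8, 56.1 and 32.3. The helicase subunit gene Mcm6 read 42.3, 29.1 and 23.7, and the clamp loader gene Rfc4 read 50.9, 33.9 and 23.8. Top2a, a topoisomerase of dividing cells, lay above wild-type, at 33.3, 45.3 and 30.7. The summed intensity of the 36 measured erythroid genes had the same order of arrays as that of these genes: 2460 in wild-type, 2052 in the double-deficient and 1224 in the DNase II-deficient array, against 1906, 1515 and 1073 for the 38 measured mitosis and replication genes. That order was not particular to them. Cytosolic ribosomal protein genes summed to 9639, 8976 and 8731 and hepatocyte plasma protein genes to 4604, 3919 and 3850.

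Hepatocyte genes were also slightly below wild-type, with a few large exceptions. Of 26 plasma protein genes compared, from 28 measured, 25 lay below 0 as deposited and 23 or 24 under the other scalings, with a median of -0.41 and 0 at 2-fold. Vtn, the adhesion protein vitronectin, read 66.5, 36.6 and 42.1, and the antithrombin gene Serpinc1 read 117, 84.5 and 90.5. Serpina1c, an α1-antitrypsin gene with near-identical copies, read 56.0, 33.0 and 5.11, while its copy Serpina1b, the member above 0, read 539.9, 588 and 293. The fetal albumin-like protein gene Afp, at 582, 568 and 885, and the thyroid hormone carrier gene Ttr, at 429, 379 and 466, were close to wild-type. Of 14 complement genes compared, 0 were 2-fold different and 10 lay below 0, with a median of -0.40; Masp2 read 4.84, 2.59 and 1.87 and C1ra read 11.2, 20.0 and 38.03.

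Of 21 hepatic metabolism genes compared, from 26 measured, 4 were at least 2-fold lower and 1 was higher. Car3, a cytosolic carbonic anhydrase, read 16.3, 2.52 and 0.868 and was 6.46-fold lower. Bhmt, which remethylates homocysteine, read 33.8, 12.4 and 9.30 and was 2.73-fold lower, and Otc, the urea cycle enzyme ornithine transcarbamylase, read 25.9, 10.5 and 5.92 and was 2.48-fold lower. Hpd, an enzyme of tyrosine breakdown, read 9.87, 3.72 and 8.33, so it was 2.66-fold lower than wild-type in the double-deficient array and nearer to wild-type in the DNase II-deficient array. Igfbp1, a secreted binding protein for insulin-like growth factors, was the higher gene, at 4.06, 9.19 and 82.8. Of the other urea cycle genes, Ass1 read 27.7, 21.8 and 45.1 and Asl read 7.22, 7.59 and 8.85. Cytochrome P450 genes had 0 of 9 compared at 2-fold. Outside the lists, genes of hepatocytes were among the lowest. Abcb11, the bile salt export pump, read 8.10, 2.68 and 1.24 and was 3.02-fold lower. Pon1, the paraoxonase of lipoproteins, read 2.41, 0.588 and 0.386, and the carboxylesterase gene Ces1d read 1.22, 0.268 and 0.0482. Urah, an enzyme of urate breakdown, read 6.45, 2.61 and 2.49, and the aquaporin gene Aqp8 read 1.80, 0.719 and 2.76.

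**Figure D5:**
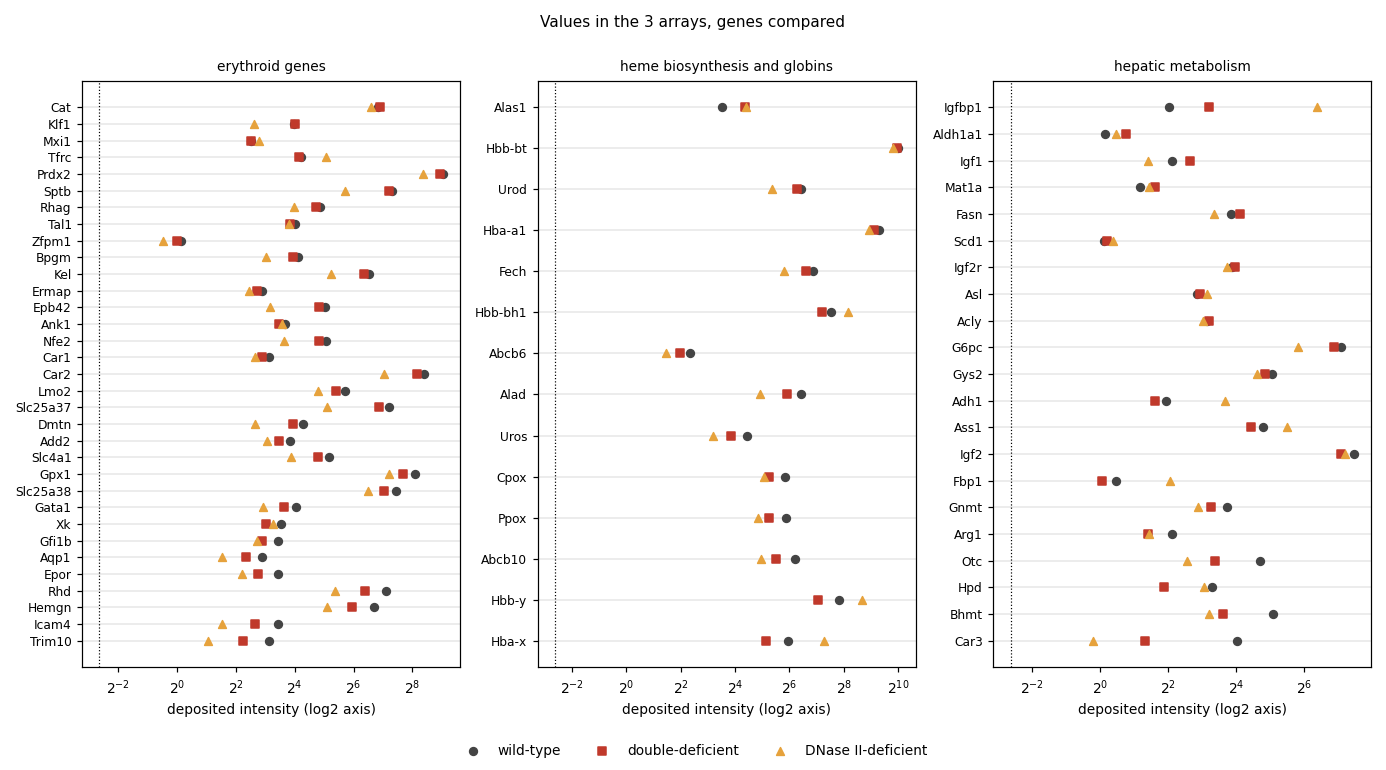
Normalised intensity (horizontal axis, log2 scale) of erythroid, heme biosynthesis, globin and hepatic metabolism genes (rows) in the wild-type, double-deficient and DNase II-deficient arrays, 1 point per array, with values under the floor drawn at the dotted floor line. Most erythroid points of the double-deficient array lie slightly to the left of wild-type, and Car3, Bhmt and Otc lie farther to the left.

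The largest negative differences of the comparison were those of Tert, the catalytic subunit of telomerase, at 190.4, 0.307 and 0.214, and of the centrosomal gene Cspp1, at 20.1, 0.424 and 0.373, which are log2 differences of -9.28 and -5.56. Each rests on 1 probe that was bright in the wild-type array and below 1 in both mutants. Nfam1, an immunoreceptor of myeloid and B cells, read 8.48, 1.59 and 1.63 and was 5.35-fold lower. Slc15a2, a peptide transporter, read 2.38, 0.578 and 1.98, and Wdhd1, a replication fork protein, read 5.61, 2.28 and 1.46. Olfr49, Sult2a2, Barx1, Icam5 and Cptp were between 2.51-fold and 4.0-fold lower, each by 1 probe and each below 1 in the double-deficient array.

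Of 18 heat shock and protein folding genes compared, 2 were higher by 2-fold or more and 0 lower: Hspa1a, at 0.509, 2.28 and 93.3, and Hspa1b, at 2.37, 4.82 and 100.4, which encode near-identical copies of inducible Hsp70 and cannot be separated. The values of both were far higher in the DNase II-deficient array. Of 14 integrated stress and endoplasmic reticulum stress genes compared, 2 were at least 2-fold higher, Nupr1, at 0.534, 2.56 and 7.21, and Atf3, at 0.393, 1.11 and 6.45; 1 was called when the floor was raised to the array median. The list's median of -0.08 was 0.02 after cyclic loess, and Atf4, the transcription factor of the integrated stress response, read 291, 191 and 228. Of 21 p53 target and cell death genes compared, 4 were higher by 2-fold or more (2 when the floor was raised to the array median) and 0 lower. Pmaip1, the pro-apoptotic protein Noxa, read 0.929, 3.66 and 6.92, and the cell cycle inhibitor gene Cdkn1a read 0.551, 1.45 and 4.65. Of the inflammatory caspase genes, Casp4 read 0.547, 1.85 and 7.28 and Casp1 read 5.63, 12.8 and 24.1. Bbc3, another pro-apoptotic p53 target, was not raised, at 1.20, 0.909 and 1.58.

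Of the immediate early genes, 2 of 14 compared were at least 2-fold higher: Jun, at 1.21, 3.20 and 12.96, and Klf4, at 0.584, 1.18 and 1.53, which was just under 2-fold after quantile normalisation (0.997 on the log2 scale), and 1 was called when the floor was raised to the array median. Hypoxia genes had 0 of 15 compared at 2-fold and a median of 0.20, with Vegfa at 3.96, 4.44 and 17.6 and Bnip3 at 15.6, 19.1 and 74.7. Of 11 glycolytic enzyme genes, 1 was at least 2-fold higher, Pfkp, the platelet type of phosphofructokinase, at 5.59, 12.0 and 39.1.

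Of 20 stellate and mesenchymal genes compared, 1 was at least 2-fold higher, the protease inhibitor gene Timp1, at 0.783, 3.49 and 2.73, and the list's median was 0.25. Its other members included Vim, the intermediate filament vimentin, at 44.6, 71.3 and 84.9, and Col1a1, at 3.18, 5.02 and 3.98. The lists of endothelial (12 compared), megakaryocyte and platelet (11), lymphoid (7), muscle (9), placenta and yolk sac (3), and cholangiocyte, mesothelial, pancreas and gut genes (8) had 0 members at 2-fold. The same held for 14 housekeeping and 28 cytosolic ribosomal protein genes, whose medians of -0.12 each changed sign under cyclic loess, to 0.04. For lists of these sizes, 0 members is near the share over all genes compared, 2.05% higher and 0.735% lower.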

How the data were processed

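Fetal liver RNA was measured on 3 single-colour arrays, 1 per genotype. Poly(A) RNA was copied to cDNA, labelled with biotin by in vitro transcription, stained with a Cy5 conjugate and read with CodeLink software, per the labels' protocols. The sources used here give neither its version nor its background method. The authors deposited 1 normalised, linear intensity per probe and array, with 267 and 253 values at or below 0 in the wild-type and double-deficient arrays. A shared array median hides any difference in total RNA, and dim probes are uncertain.

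Of 20289 probes, 113 lacked a value in either array and were left out. The platform annotation, possibly outdated, paired 15120 probes with 1 gene symbol, 38 with several and 5131 with none; 15064 Entrez identifiers matched RefSeq and 0 symbols changed. For the 1245 genes with several probes, the probe brightest on average on the log2 scale was used. Values were raised to the array's 25th percentile and log2 transformed, and genes above the array median in at least 1 array were kept. Spread was 1.4826 times the median absolute deviation over the 500 genes nearest in level. The steps, run with Python 3.11.15, NumPy 2.4.6, pandas 2.3.3 and statsmodels 0.14.6, were tested on simulated data. The 10 alternatives covered scaling, floor, level filter and choice of probe.

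The genes and lists were chosen with earlier results of these data known. Genes named were drawn from a rule, though not every gene under it is printed: the targeted genes, the 2-fold members of each list (the 8 largest if more), or otherwise the 4 largest differences, and up to 2 members against the list's median. Outside the lists they were the 20 largest positive and 15 largest negative differences, without clone-based names, and overall the 8 largest lower bounds in each direction. Chosen after their values were seen were Afp, Alad, Asl, Ass1, Atf4, B2m, Birc3, C1qa, C1qb, C1qc, Ccl4, Cd163, Col1a1, Cpa3, Crp, Ctsg, Cxcl2, Cxcr2, Elane, Epor, Fcer1g, Fgb, Folr2, Gbp5, H2-DMa, H2-M3, Hbb-bt, Ifng, Igtp, Il1b, Il6, Irf7, Irgm1, Lamp1, Mcm6, Mertk, Mki67, Mrc1, Nfkb2, Prtn3, Psmb10, Rfc4, Rrm2, Rtp4, S100a9, Serpinc1, Slc40a1, Socs3, Spic, Sptb, Tfrc, Tnf, Tnfaip3, Tpsb2, Tyrobp, Usp18, Vegfa and Vim.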

Additional observations from a re-analysis of the deposited data

How the results depend on the processing

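No difference called at 2-fold among the named genes reversed under the 10 alternatives, and 116 of the 118 named genes called at 2-fold stayed past 2-fold under each scaling, Klf4 and Cdc6 being the exceptions. Raising the floor to the array median left 12 higher and 6 lower genes at 4-fold, in place of 33 and 11, and 47 probes at least 2-fold lower in place of 75, and 38 named genes lost their 2-fold difference. Without the level filter there were 259 genes higher and 97 lower at 2-fold, and 316 probes higher and 136 lower. With the filter at the 75th percentile, which tests fewer genes, there were 67 higher and 25 lower at 2-fold, 11 and 6 at 4-fold, and 70 and 28 probes at 2-fold. The other counts over all genes or probes stayed within 1.5 times their value. Counts of lists moved more. Among those named in the text, with the raised floor the higher members went from 9 to 5 (GTPases), 4 to 1 (class II), 4 to 2 (CXC chemokines, activated macrophage, and p53 and cell death genes), 2 to 1 (integrated stress and immediate early genes) and 1 to 0 (mast cell, basophil and eosinophil genes). At the 75th percentile filter there were 2 GTPases and 4 CC chemokines, in place of 9 and 8. Other lists also lost higher members there. Class II, CXC chemokine, and p53 and cell death genes went from 4 to 1. Interferon-stimulated and activated macrophage genes went from 4 to 2, and acute phase genes from 4 to 3. Chemoattractant receptor, class I and Fc receptor genes went from 3 to 1. Heat shock, integrated stress and immediate early genes went from 2 to 0. The stellate and mesenchymal list and the mast cell, basophil and eosinophil list went from 1 to 0. Neutrophil granule genes kept 11 of 12. List medians moved by more than the typical spread in 6 of 460 cases, each with another floor or with genes of 1 probe. Dim genes are limited by signal over background. No paired analysis was possible because each genotype has 1 array and the labels carry no replicate numbers.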

Other observations

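Of 1727 probes with no single gene symbol that passed the level filter, 17 were at least 2-fold higher and 10 lower in the double-deficient array than in wild-type, and 2 and 2 reached 4-fold. Of all 10409 probes that passed it, 187 were at least 2-fold higher (1.8%) and 75 lower (0.721%), and 35 and 14 reached 4-fold. Higher calls were thus less frequent among the probes with no single symbol. Of the 167 higher genes, 3 had clone-based names and are counted but not named.

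Among sex-linked genes, 0 of 4 compared were 2-fold different. The Y-linked gene Eif2s3y read 5.07 in wild-type and 8.64 in the double-deficient array, and Kdm5d read 5.95 and 5.20.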
